A study of Rattus norvegicus with 9 samples.

Results

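Tagln (transgelin) and Myl9 (a regulatory light chain of myosin) belong to a set of 9 genes of contractile and actin-binding proteins that was followed through hippocampal RNA of 9 male rats. The set held Tagln, Tagln2, Myl9, Acta2, Myh11, Cnn1, Cnn2, Tpm2 and Tpm4, and its rows were found by gene symbol, 9 of the 18733 genes in the tables. The genes were chosen by name with levels in these same libraries already known, so their changes in PSCI against control and in taVNS against PSCI are given as descriptions with no p. Adjusted p-values are given in those comparisons for Acta2, Myh11 and Cnn1, the smooth muscle genes of which it was asked whether they move with Tagln and Myl9, and for every tested gene of the set in taVNS against control. The label of contractile genes describes their known products, and whether the smooth muscle genes among them moved together is the question examined here.

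There were 3 groups of 3 rats, with 1 library per rat. The taVNS rats underwent occlusion of the middle cerebral artery (MCAO), which models ischaemic stroke by blocking a brain artery, were cognitively impaired, and received transcutaneous auricular vagus nerve stimulation, an electrical stimulation applied at the ear, over 14 days. The PSCI rats (post-stroke cognitive impairment) had the same surgery and impairment and were kept on ordinary feed for 2 weeks. The control rats were on ordinary feed. The labels do not say whether controls had sham surgery, whether PSCI rats had sham stimulation, which hemisphere was sampled, or how old the rats were, and the extraction text speaks of mice although all labels and gene identifiers are of the rat. Whole hippocampal tissue was extracted, so all cell types contributed, and polyadenylated RNA was sequenced to between 13747381 and 15415684 counts per library. The 6 neuronal markers examined (Rbfox3, Snap25, Syt1, Slc17a7, Gad1 and the granule cell factor Prox1) were detected in every library, with summed levels of 5283 to 6110 CPM (counts scaled to a common library size) in taVNS, 3782 to 5142 CPM in PSCI and 5474 to 6081 CPM in control libraries.

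In smooth muscle, force is made by myosin heavy chains, of which Myh11 is the smooth muscle form, sliding on filaments of alpha smooth muscle actin, the product of Acta2. Myosin is switched on by phosphorylation of its regulatory light chains, tropomyosins lie along the actin filament, and calponins and transgelins bind and bundle it. In the brain Acta2, Myh11, Cnn1 and Tagln are used as markers of mural cells, the smooth muscle cells and some pericytes of vessel walls, while Tagln2, Cnn2 and Tpm4 are forms that many non-muscle cells also make. Many genes of this set carry CArG boxes, the motif bound by serum response factor (SRF), which works with the cofactors myocardin, Mrtfa and Mrtfb.

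The promoters of Acta2 and Cnn2 are shown because a CArG box match was found in these and in none of the other promoters of the set that could be read, and because the 2 genes differed in the data. RefSeq promoter windows were taken from assembly GRCr8, a newer assembly than the one used for counting. They were matched by NCBI gene number for 6 of the 9 genes (Tagln2, Acta2, Cnn1, Cnn2, Tpm2 and Tpm4). Each window reached from 250 bases before to 50 bases after the annotated start. Capitals mark the CArG box matches, and both sequences are on the minus strand, at chr1:241172454-241172753 for Acta2 and at chr7:10370263-10370562 for Cnn2.
Acta2: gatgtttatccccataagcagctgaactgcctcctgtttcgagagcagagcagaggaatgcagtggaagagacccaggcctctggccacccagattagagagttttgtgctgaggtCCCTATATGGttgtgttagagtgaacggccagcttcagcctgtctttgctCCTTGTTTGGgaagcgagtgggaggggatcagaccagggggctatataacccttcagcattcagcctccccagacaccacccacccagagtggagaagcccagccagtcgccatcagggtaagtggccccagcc
Cnn2: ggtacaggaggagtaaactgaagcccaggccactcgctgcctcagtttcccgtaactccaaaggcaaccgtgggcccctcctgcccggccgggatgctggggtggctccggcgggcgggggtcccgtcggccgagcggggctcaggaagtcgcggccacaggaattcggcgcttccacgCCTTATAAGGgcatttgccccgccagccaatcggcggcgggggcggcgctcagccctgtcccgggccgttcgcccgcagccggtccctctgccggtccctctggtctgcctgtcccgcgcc
Cnn2 held 1 exact CArG box, beginning 71 bases before the start. Acta2 held 2 near matches, beginning 134 and 84 bases before the start, each with 1 inner letter that is not A or T. Of all 33469 promoter windows, 1.64% held an exact CArG box and 9.42% held one with at most 1 inner letter off. The M-CAT motif (CATTCC on either strand) was found at 2 places in Tagln2 and 1 place in Acta2, upstream of its CArG matches, and in 14.2% of all windows, and the AP-1 motif (TGANTCA) in none of the 6 and in 7.33% of all windows. A match is a run of letters and not a measured binding site.

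Before the results, 2 libraries have to be named. Markers of meninges and fibroblasts (10 genes, Dcn, Lum, Col1a1 and others, none at 0 in any library) summed to 460 CPM in taVNS replicate 3 and to 436 CPM in PSCI replicate 2, while the other 7 libraries lay between 62.7 and 117 CPM. Values without these libraries are therefore given beside the main ones.

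Tagln was the gene of the set that differed most. Tagln (NCBI gene 25123), whose protein bundles actin filaments, had 10.4, 7.97 and 10.5 CPM in taVNS rats, 144, 117 and 99.7 CPM in PSCI rats and 10, 9.0 and 5.07 CPM in control rats. All 3 PSCI libraries were at least several times above every other library, and the taVNS and control libraries overlapped. These levels rest on 1528 to 2107 counts in each PSCI library and on 69 to 154 counts in each of the others. The fitted difference (edgeR, log2 scale) was 3.90 ± 0.26 (SE) in PSCI against control, 14.9-fold, with a 95% interval of 3.32 to 4.48. In taVNS against PSCI it was -3.64 ± 0.25, that is 12.4-fold lower in taVNS. Without PSCI replicate 2 and taVNS replicate 3 the differences were 3.90 and -3.72. In bulk tissue such as this, fewer cells of a type and less RNA per cell cannot be told apart.

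Myl9 (NCBI gene 296313), the light chain whose phosphorylation lets smooth muscle and non-muscle myosin contract, had 6.45, 5.46 and 8.13 CPM in taVNS rats, 26.5, 32.1 and 29.5 CPM in PSCI rats and 6.76, 6.23 and 5.14 CPM in control rats. The PSCI libraries were again all above the others, and they lay close together, with a mean of 29.4 ± 2.8 CPM (SD, n = 3) against 6.05 ± 0.826 CPM in control. The difference was 2.28 ± 0.18 (4.85-fold) in PSCI against control and -2.14 ± 0.18 in taVNS against PSCI, 4.39-fold lower in taVNS. Without the 2 libraries named above these were 2.19 and -2.23.

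**Figure D1:**
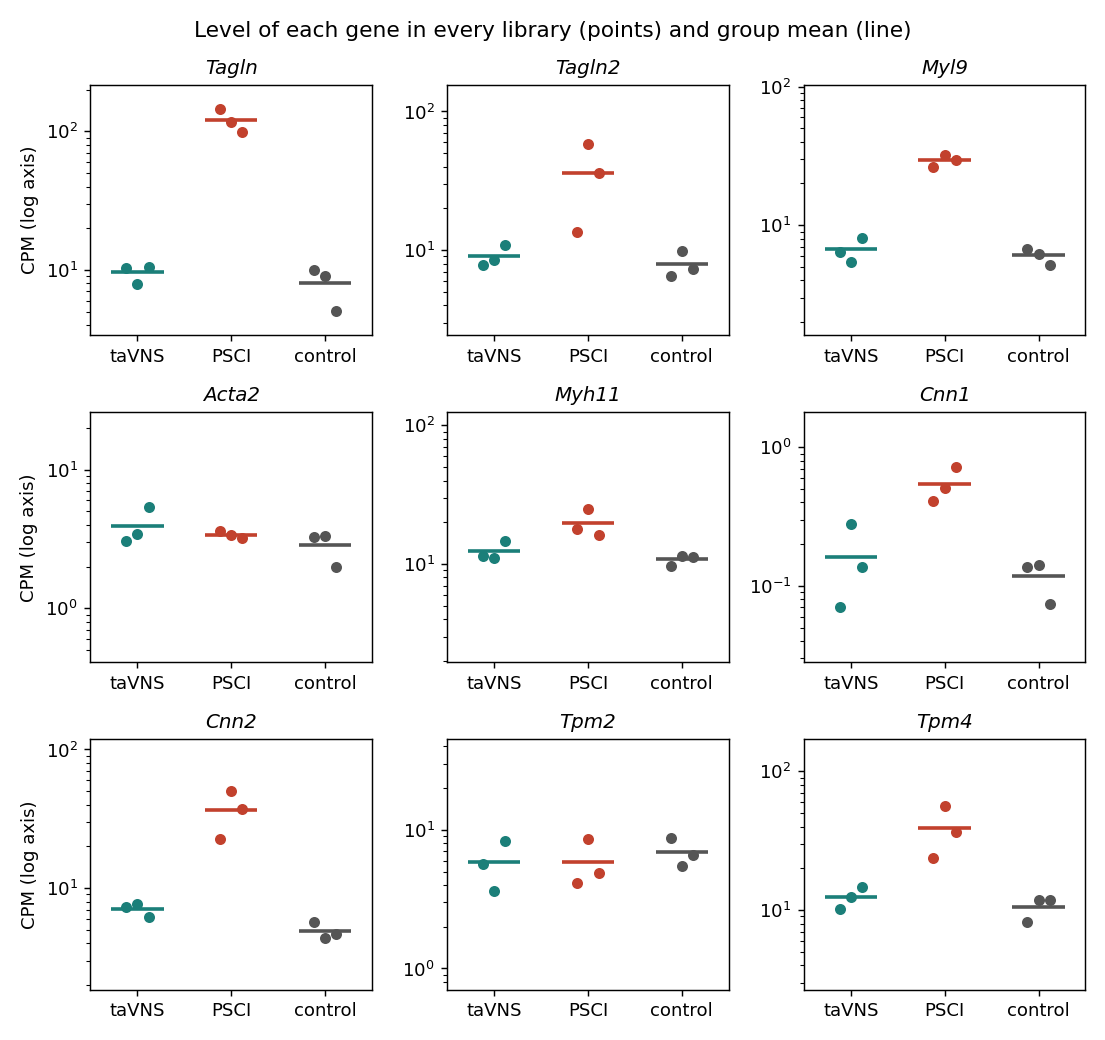
Level of each of the 9 genes in CPM on a log axis, with the same ratio from bottom to top in every panel; points are libraries (replicates 1 to 3 from left to right) and lines are group means, for taVNS, PSCI and control. The PSCI libraries of Tagln lie at 99.7 to 144 CPM, above the 5.07 to 10.5 CPM of all others, whereas Acta2 and Tpm2 overlap across the 3 groups.

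Of the 3 mural cell genes, Acta2 was not called in PSCI and Myh11 was higher there by less than Tagln and Myl9. Cnn1 had higher counts in every PSCI library but did not pass the filter on low counts. Acta2 (NCBI gene 81633), the actin of smooth muscle, had 3.08, 3.43 and 5.33 CPM in taVNS rats, 3.61, 3.38 and 3.2 CPM in PSCI rats and 3.24, 3.33 and 1.98 CPM in control rats. All 3 groups overlapped, and the highest library was a taVNS one. The difference in PSCI against control was 0.25 ± 0.29 (log2, 95% interval -0.40 to 0.90), and the adjusted p of edgeR's quasi-likelihood test was 0.648, with 0.51 to 0.974 over the alternatives. On the linear scale the interval runs from 0.758-fold to 1.86-fold, so a change of the size seen for Myl9 or Tagln lies outside it, while a smaller change does not. In taVNS against PSCI Acta2 differed by 0.22 ± 0.28 (edgeR adjusted p = 0.72), and by -0.06 without PSCI replicate 2 and taVNS replicate 3. The counts behind these values were 27 to 78 per library.

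Myh11 (NCBI gene 24582), the myosin heavy chain of smooth muscle, had 11.4, 11.1 and 14.7 CPM in taVNS rats, 17.9, 25 and 16.1 CPM in PSCI rats and 9.73, 11.5 and 11.3 CPM in control rats. Each PSCI library was above each library of the other groups, by a margin much smaller than for Tagln. Myh11 was higher in PSCI than in control by 0.86 ± 0.19 (log2), 1.81-fold, with an edgeR adjusted p of 0.0243. Over the alternatives this p ran from 0.00158 to 0.0812, and it passed 0.05 when any 1 control library was left out (0.0698 to 0.0812), with the PSCI and control groups fitted alone (0.0541) and with limma on log2(RPKM + 0.1) (0.0504). Without PSCI replicate 2 the difference was 0.65, with an edgeR adjusted p of 0.0475. In taVNS against PSCI the difference was -0.67 ± 0.19, and -0.59 without PSCI replicate 2 and taVNS replicate 3. The first of these did not pass the threshold (edgeR adjusted p = 0.0809, 0.0312 to 0.258 over the alternatives, the lowest with DESeq2).

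Cnn1 (NCBI gene 65204), the calponin of differentiated smooth muscle, was at the edge of detection and did not pass the filter on low counts. It had 1, 4 and 2 counts in taVNS libraries, 6, 8 and 11 counts in PSCI libraries and 2, 2 and 1 counts in control libraries, where a floor of 3 counts corresponds to 0.195 to 0.218 CPM. Summed over 3 libraries this was 7 counts in taVNS (exact 95% Poisson interval 2.81 to 14.4), 25 counts in PSCI (16.2 to 36.9) and 5 counts in control (1.62 to 11.7), intervals that cover counting error only. The PSCI libraries were all above the others, at a level of 0.554 CPM over the group. When the test was run with no filter, Cnn1 differed by 2.12 ± 0.62 in PSCI against control (edgeR adjusted p = 0.0685) and by -1.70 ± 0.59 in taVNS against PSCI (edgeR adjusted p = 0.157). The first of these estimates was near that of Myl9 (2.28), below that of Tagln (3.90) and above that of Acta2 (0.25). It rests on 1 to 11 counts per library and did not pass the threshold, so which gene Cnn1 followed is not settled.

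Tagln and Myl9 were also set against the mural genes within each library, so that a factor shared by both genes of a pair drops out. The log2 CPM of Tagln minus that of Acta2 was 1.29 ± 0.39 (SD, n = 3) in taVNS, 5.07 ± 0.18 in PSCI and 1.43 ± 0.15 in control. Tagln minus Myh11 was -0.36 ± 0.21 in taVNS, 2.61 ± 0.39 in PSCI and -0.48 ± 0.60 in control. The distance of Tagln from both genes was thus larger in every PSCI library than in any other library. Myl9 minus Acta2 was 0.76 ± 0.24 in taVNS, 3.06 ± 0.20 in PSCI and 1.07 ± 0.22 in control. Myl9 minus Myh11 was -0.89 ± 0.11 in taVNS, 0.60 ± 0.26 in PSCI and -0.83 ± 0.30 in control, so that Myl9 was below Myh11 in these units outside PSCI and above it in PSCI. The PSCI mean exceeded the control mean by 3.65 for Tagln minus Acta2, by 3.09 for Tagln minus Myh11, by 1.99 for Myl9 minus Acta2 and by 1.43 for Myl9 minus Myh11. In these 4 pairs the PSCI libraries lay outside the range of both other groups, and the taVNS and control ranges overlapped. Against Cnn1 the excess depended on the prior count of 2 added before taking logs, which is large beside the 1 to 11 counts of Cnn1 and shrinks its own difference. With it the excess was 2.51 for Tagln and 0.85 for Myl9, and with no prior count, a setting chosen after seeing the data, it was 1.71 for Tagln and 0.05 for Myl9. With no prior count Myl9 minus Cnn1 was 5.57 ± 1.15 in taVNS, 5.79 ± 0.37 in PSCI and 5.73 ± 0.35 in control, all overlapping, and the PSCI range of Tagln minus Cnn1 lay above control but overlapped taVNS. The ratio of Myl9 to Cnn1 therefore did not separate the groups at this depth. Since Tagln and Myl9 were chosen for their change, these differences are given with no test.

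**Figure D2:**
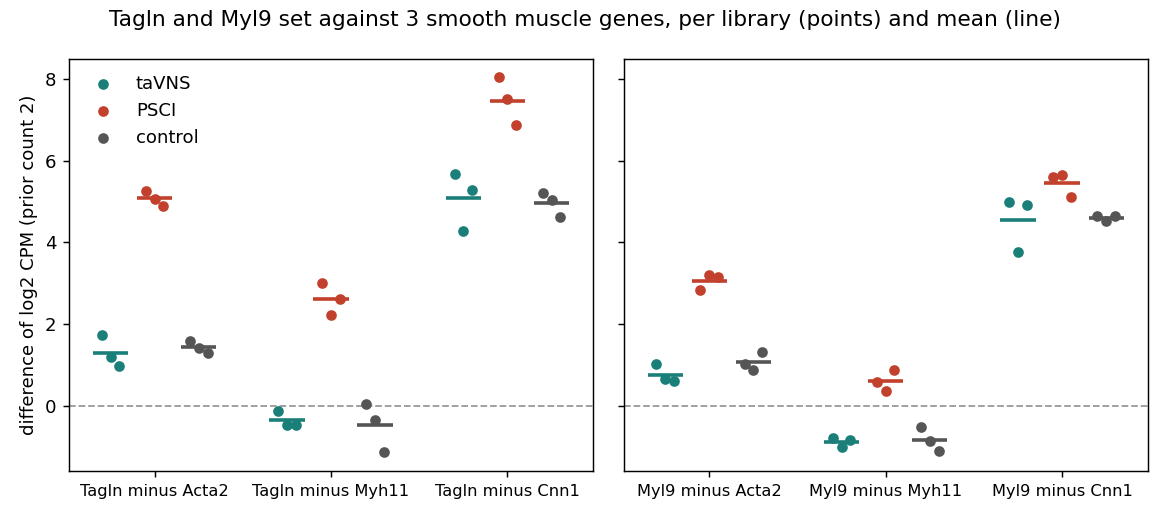
Log2 CPM (prior count 2) of Tagln (left) and Myl9 (right) minus that of Acta2, Myh11 and Cnn1; points are libraries and lines are means of 3, for taVNS, PSCI and control. Tagln minus Acta2 is 0.96 to 1.72 in taVNS, 4.90 to 5.26 in PSCI and 1.30 to 1.59 in control libraries; the separation of Myl9 minus Cnn1 comes with the prior count and is absent without it (4.29 to 6.52 in taVNS, 5.36 to 6.02 in PSCI and 5.46 to 6.13 in control).

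The calponin and transgelin forms that non-muscle cells also make were closer to Tagln and Myl9. Cnn2 (NCBI gene 690976), an actin-binding calponin, had 7.29, 7.62 and 6.22 CPM in taVNS rats, 22.5, 50.0 and 37.5 CPM in PSCI rats and 5.73, 4.39 and 4.7 CPM in control rats. The groups were separated in all 3 comparisons, and Cnn2 was the one gene of the set with every taVNS library above every control library. Its difference was 2.89 ± 0.28 in PSCI against control (7.4-fold) and -2.38 ± 0.27 in taVNS against PSCI (5.2-fold lower in taVNS). Tagln2 (NCBI gene 304983), a transgelin of many cell types, had 7.85, 8.53 and 10.9 CPM in taVNS rats, 13.4, 58.1 and 35.8 CPM in PSCI rats and 6.49, 9.92 and 7.35 CPM in control rats. Here the PSCI libraries were spread widely, replicate 1 standing just above the other groups and replicate 2 far above them. The difference of 2.17 ± 0.45 in PSCI against control was 1.64 without PSCI replicate 2, and the difference of -1.97 ± 0.45 in taVNS against PSCI was -1.57 without that library and taVNS replicate 3.

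Of the tropomyosins, which stiffen actin filaments and regulate myosin access, Tpm4 separated PSCI from the other groups and Tpm2 did not. Tpm4 (NCBI gene 24852), largely a cytoskeletal form, had 10.2, 12.5 and 14.7 CPM in taVNS rats, 23.8, 55.9 and 36.7 CPM in PSCI rats and 8.14, 11.9 and 11.8 CPM in control rats. The PSCI libraries were all higher, with a difference of 1.87 ± 0.30 (3.65-fold) against control and of -1.64 ± 0.30 in taVNS against PSCI. Over the alternatives, leaving out the 2 named libraries among them, these differences ran from 1.49 to 2.12 and from -1.89 to -1.27. Tpm2 (NCBI gene 500450), a muscle form also called beta-tropomyosin, had 5.68, 3.64 and 8.33 CPM in taVNS rats, 4.16, 8.54 and 4.9 CPM in PSCI rats and 8.7, 5.52 and 6.61 CPM in control rats. These overlapped throughout, with differences of -0.24 ± 0.36 in PSCI against control and 0.00 ± 0.36 in taVNS against PSCI. Without PSCI replicate 2, the highest of its group, the first of these was -0.61. Reads of actins and of tropomyosins can match more than 1 member of each family, and the estimated counts may divide them between members with error.

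**Figure D3:**
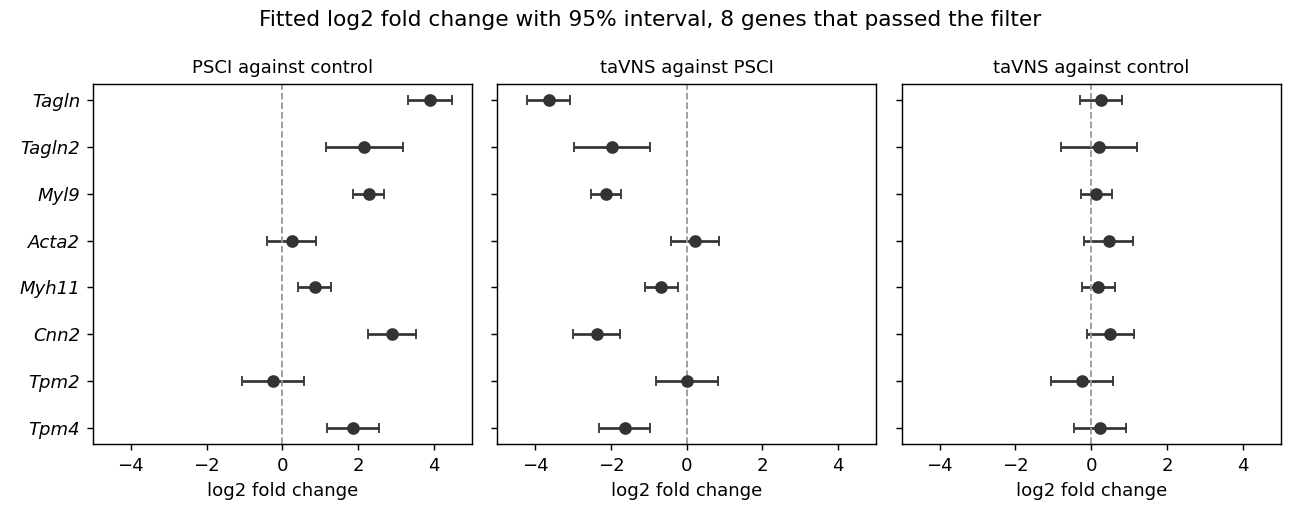
Fitted log2 fold change (points) with its 95% interval (bars) for the 8 genes that passed the filter, in PSCI against control, taVNS against PSCI and taVNS against control. Tagln lies at 3.90, -3.64 and 0.26, and the intervals of Acta2 and Tpm2 include 0 in each panel.

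Over the set, 8 of the 9 genes passed the filter, and 6 of these 8 were called higher in PSCI than in control, at an adjusted p under 0.05, where 7.71% of all 14840 tested genes were called higher and 2.14% lower. In 7 of the 9 genes all 3 PSCI libraries were above all 3 control libraries, which held for 16.2% of all tested genes. In taVNS against PSCI, 5 of 8 were called lower, against 4.91% of all tested genes, and in 7 of the 9 genes every taVNS library was below every PSCI library, against 15.2%. The median difference of the 8 tested genes was 2.02 in PSCI against control and -1.80 in taVNS against PSCI, with a median of -0.00 over all genes in both. Without PSCI replicate 2 and taVNS replicate 3, 6 were called higher in PSCI than in control and 4 lower in taVNS than in PSCI. The genes were selected on these comparisons, and nothing is read from these counts.

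In taVNS against control, a comparison that shares its libraries with the other 2, no gene of the set was called. The edgeR adjusted p was 1 for each of the 8 tested genes and at least 0.895 under all alternatives. By this test 0% of all genes were called and 557 had an unadjusted p under 0.05, while DESeq2 called 10 genes and limma on log2(RPKM + 0.1) called 0. Tagln differed by 0.26 ± 0.25 (95% interval -0.30 to 0.82) and Myl9 by 0.14 ± 0.18 (-0.26 to 0.55). Acta2 differed by 0.47 ± 0.29 (-0.18 to 1.11), Myh11 by 0.19 ± 0.19 and Cnn2 by 0.51 ± 0.28 (-0.11 to 1.13). Groups without overlap, all 3 taVNS libraries higher, were found for Cnn2 only, 1 of 9 genes, against 5.74% of all tested genes. An adjusted p of 1 does not show that levels were equal, and the intervals give the sizes of difference that remain possible.

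Levels of different genes can be compared per length, in RPKM (reads scaled for gene length and depth). In PSCI Tagln was first with 157 ± 27.9 RPKM, apart from Tpm4 (64.4 ± 29.1), Myl9 (36.1 ± 4.67), Tagln2 (35.9 ± 23.5) and Cnn2 (23.0 ± 9.33), whose neighbours in this order overlapped. Tpm2 followed with 6.25 ± 2.74 RPKM, then Myh11 (3.16 ± 0.866) and Acta2 (3.08 ± 0.202), which overlapped, and Cnn1 was last with 0.473 ± 0.131 RPKM. In taVNS and in control the first place was held by Tpm4, with 20.0 ± 3.42 and 16.8 ± 3.54 RPKM, and Tagln came next, with 12.4 ± 2.21 and 10.1 ± 3.25 RPKM, overlapping Tagln2. Acta2 had 3.53 ± 1.12 RPKM in taVNS and 2.5 ± 0.649 RPKM in control. Tagln RNA was thus more abundant per length than Acta2 RNA in all 3 groups. Apart from the exchange of Tagln and Tpm4, Cnn2 stood above Tpm2 in PSCI, with separate ranges, and below it in control (2.96 ± 0.39 against 7.08 ± 1.41 RPKM), also with separate ranges.

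The genes also differed in which PSCI library was highest. Replicate 2 was highest for Tagln2, Myl9, Myh11, Cnn2, Tpm2 and Tpm4, replicate 1 for Tagln and Acta2, and replicate 3 for Cnn1. Profiles over the 9 libraries were compared as the root mean square difference of log2 CPM after each gene was centred on its own mean, a measure in which 0 means identical profiles. The closest pair was Tagln2 and Tpm4 (0.27), followed by Myl9 and Cnn2 (0.38). Tagln lay nearest to Cnn2 (0.75) and Myl9 (0.78) and far from Acta2 (1.77), while Acta2 lay nearest to Myh11 (0.44). The size of the change in PSCI dominates this measure.

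Among 14217 genes outside the set, the profile nearest to Tagln was that of Tspo, a protein of the outer mitochondrial membrane, at 0.50, with 3.21 CPM in taVNS, 28.4 CPM in PSCI and 1.79 CPM in control on average. Mcm5 (0.56), a helicase subunit of DNA replication, Csf2rb (0.56), a cytokine receptor chain, Cenpf (0.57), a kinetochore protein, and S1pr3 (0.59), a receptor for sphingosine 1-phosphate, followed. The genes nearest to Myl9 were Tirap and Myd88, adaptors of Toll-like receptors, C1qb, a complement subunit, Bax, a pore-forming apoptosis protein, and Gabarap, an autophagy protein, at 0.14 to 0.18. For some of these the deposited counts and RPKM differed: the log2 ratio of PSCI to control was 2.10 by counts and 0.85 by RPKM for Gabarap, 2.27 and 1.37 for Myd88, and 2.27 and 1.94 for Bax. By RPKM, Tirap (0.17) and C1qb (0.17) were nearest to Myl9 and Myd88 and Gabarap ranked 314 and 1235. The genes of the set themselves showed no such gap, Tagln having a ratio of 3.96 and Myl9 of 2.34 by RPKM.

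Acta2 had other neighbours. Pdgfrb, the platelet-derived growth factor receptor of pericytes and other mural cells, was nearest to it of all 14217 genes, at 0.12 by counts and 0.13 by RPKM, followed by F11r (0.17), Spef2 (0.18), Syne3 (0.20) and Matn4 (0.20). Pdgfrb averaged 28.6 ± 7.88 CPM in taVNS, 23.7 ± 1.29 CPM in PSCI and 20.7 ± 3.56 CPM in control, and like Acta2 it was highest in taVNS replicate 3 and lowest in control replicate 3. Rgs5, another pericyte marker, ranked 10949 in likeness to Acta2 (0.50). Pdgfrb ranked 6294 in likeness to Tagln, 6631 to Myl9 and 5751 to Myh11. Of the astrocyte markers, Gfap ranked 43 (0.70) and Vim 49 (0.72) in likeness to Tagln, and Gfap ranked 109 (0.41) and Vim 11840 (1.2) in likeness to Myl9, while the microglial marker Aif1 ranked 620 for Tagln and 372 for Myl9. The neighbours of Myh11 were Tm6sf1 (0.13), Lamc1 (0.13), a laminin chain, Myh9 (0.14), a non-muscle myosin heavy chain, Lin9 (0.14) and Chaf1a (0.14). Closeness is easier to reach for a gene with a flat profile such as Acta2, and these distances carry no test.

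**Figure D4:**
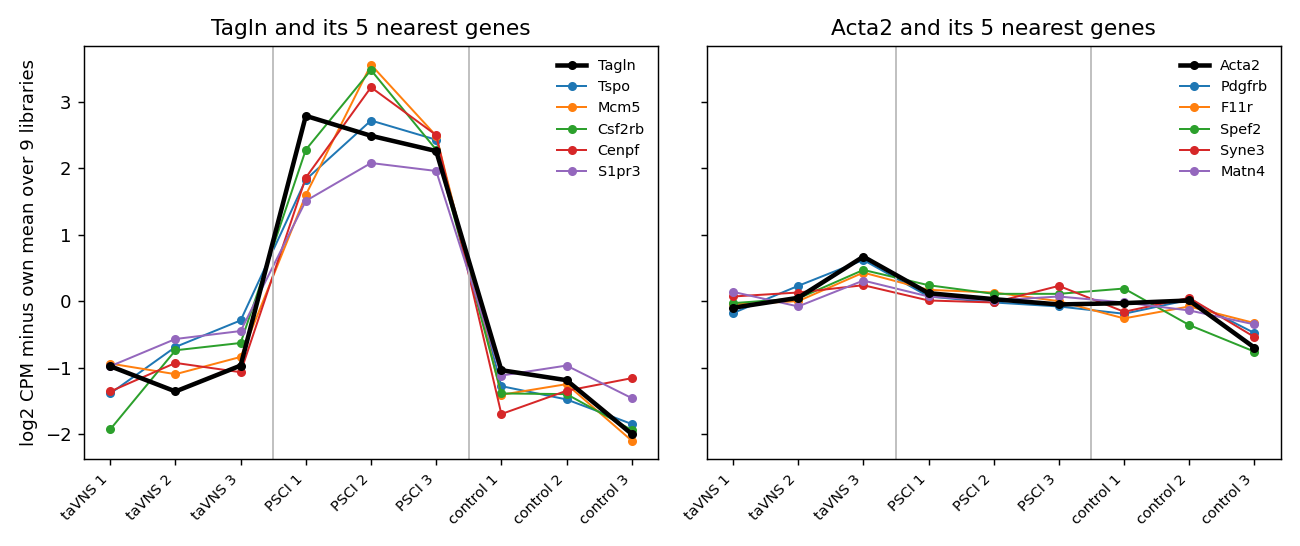
Log2 CPM minus each gene's own mean over the 9 libraries, for Tagln (left, black) and Acta2 (right, black) with the 5 genes of nearest profile. Tagln and its neighbours stand high in the 3 PSCI libraries, while Acta2 and Pdgfrb are highest in taVNS replicate 3 and lowest in control replicate 3.

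Paralogs of the set moved in part. Of 13 paralogs, 11 were tested, and 4 rose in PSCI against control by edgeR (adjusted p under 0.05): Cnn3, a calponin of non-muscle cells, by 1.29 ± 0.15 (log2), the non-muscle myosin light chain Myl12a by 1.40 ± 0.25, the non-muscle heavy chain Myh9 by 1.01 ± 0.16, and the light chain Myl6 by 0.44 ± 0.11. Cnn3 averaged 144 ± 14.4 CPM in taVNS, 338 ± 65.2 CPM in PSCI and 139 ± 10.2 CPM in control, and its call held under all 17 alternatives, as did that of Myh9, while that of Myl12a held under 15 and that of Myl6 under 6. The same 4 genes fell in taVNS against PSCI, Cnn3 by 1.23 and Myl12a by 1.46 on the log2 scale, with the calls of Cnn3, Myl12a, Myh9 and Myl6 holding under 17, 14, 11 and 7 alternatives. When PSCI replicate 2 and taVNS replicate 3 were both left out, 3 paralogs were called higher in PSCI than in control and 2 lower in taVNS than in PSCI. Tagln3, the neuronal transgelin, had a difference of -0.07 in PSCI against control and Tpm1 of -0.00, Tpm3 of 0.35, Myl12b of 0.02, Myh10 of 0.12, Myh14 of 0.06 and Acta1 of 0.04, none of which passed (edgeR adjusted p of at least 0.137). Actc1 and Actg2, a cardiac and an enteric actin, were not tested, with 6 and 3 counts summed over taVNS, 2 and 7 over PSCI and 2 and 2 over control libraries. The median over the 11 was 0.12 in PSCI against control and -0.18 in taVNS against PSCI.

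Other genes of the smooth muscle apparatus were called higher in PSCI than in control by edgeR (adjusted p under 0.05), among them Synpo2, an actin-binding protein of the Z-disc and stress fibres, by 1.98 ± 0.44 (log2), the collagen receptor subunit Itga1 by 1.23 ± 0.27, and the actin and myosin binding caldesmon Cald1 by 0.93 ± 0.24. Synpo2 was low, at 1.34 ± 0.218 CPM in taVNS, 3.01 ± 0.559 CPM in PSCI and 0.76 ± 0.522 CPM in control. Itga1 averaged 10.5 ± 3.02 CPM in taVNS, 14.9 ± 2.81 CPM in PSCI and 6.35 ± 1.68 CPM in control, and Cald1 averaged 26.1 ± 6.19 CPM in taVNS, 44.1 ± 12.6 CPM in PSCI and 23.2 ± 3.99 CPM in control. In taVNS against PSCI these 3 genes had differences of -1.16, -0.50 and -0.76, none past the threshold (edgeR adjusted p of 0.149, 0.31 and 0.104). The calls of Itga1, Synpo2 and Cald1 in PSCI against control held under 14, 12 and 8 of 17 alternatives, and each was lost when control replicate 1, control replicate 3 or PSCI replicate 3 was left out (edgeR adjusted p of up to 0.0899, 0.102 and 0.13).

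The non-muscle actin cytoskeleton had more calls. Of its 24 genes, all tested, 13 rose and 0 fell in PSCI against control, with a median of 0.62, and 14 fell and 0 rose in taVNS against PSCI, with a median of -0.65. These counts were 9 and 7 without PSCI replicate 2 and taVNS replicate 3. The largest differences were those of Capg, a filament capping protein, Msn (moesin), a linker of actin to the membrane, Arpc1b, a subunit of the Arp2/3 complex, and Flna (filamin A), a crosslinker, at 3.19, 2.53, 2.47 and 2.44 in PSCI against control. Capg averaged 4.57 ± 1.57 CPM in taVNS, 29.5 ± 12.9 CPM in PSCI and 3.23 ± 1.44 CPM in control. Actb, the cytoplasmic beta-actin, differed by 0.55 ± 0.13, from a far higher level of 1640 ± 114 CPM in taVNS, 2550 ± 175 CPM in PSCI and 1740 ± 245 CPM in control, and its call held under 8 of 17 alternatives. Myh9, Myl6 and Myl12a belong to both this list and the paralogs.

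Serum response factor and its cofactors were measured as well. Srf averaged 63.8 ± 6.37 CPM in taVNS, 62.1 ± 6.41 CPM in PSCI and 66.9 ± 4.13 CPM in control, a difference of -0.11 in PSCI against control (edgeR adjusted p = 0.593). Mrtfa differed by 0.01 and Mrtfb by -0.04 (edgeR adjusted p of 0.985 and 0.94), and in taVNS against PSCI the 3 genes had differences of 0.04, 0.16 and 0.20, none past the threshold. Myocd, the gene of myocardin, was not tested, with 6 counts over taVNS, 9 over PSCI and 5 over control libraries. The RNA level of these factors does not measure their activity.

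Cell type markers were read beside these genes, and their part in the differences of Tagln, Myl9, Cnn2, Tagln2 and Tpm4 was not tested. No marker of these lists was at 0 in all 9 libraries. Pericyte markers (11 genes) summed to 146 to 180 CPM in taVNS, 133 to 172 CPM in PSCI and 118 to 162 CPM in control, with a median difference of 0.20 in PSCI against control. Of these genes 1, the peptidase Anpep, rose in PSCI against control (by 2.94 ± 0.61, to 11.7 ± 7.54 CPM in PSCI against 1.52 ± 0.378 CPM in control, a call lost when any 1 control library or PSCI replicate 3 was left out, with an edgeR adjusted p of up to 0.0734), whereas Pdgfrb differed by 0.20 and Rgs5 by -0.29, neither past the threshold (edgeR adjusted p of 0.6 and 0.732). Markers of arterial smooth muscle outside the set (9 genes, of which 5 were tested) summed to 24 to 35.5 CPM in taVNS, 31.2 to 48.6 CPM in PSCI and 21.5 to 33.7 CPM in control, and Synpo2 alone was called. The median difference of the 5 tested genes was 0.72 in PSCI against control and -0.66 in taVNS against PSCI. Averaged as log2 CPM, which gives low genes equal weight, the 9 genes stood at 0.19, 0.06 and 0.32 in taVNS, 0.61, 0.64 and 0.65 in PSCI and 0.22, -0.00 and -0.23 in control, so that by this measure the PSCI libraries were all above the others. Endothelial markers (10 genes) summed to 223 to 282 CPM in taVNS, 250 to 276 CPM in PSCI and 133 to 257 CPM in control, with Tie1 alone called, by 1.01 ± 0.26, a call that held under 6 of 17 alternatives. No gene of the arterial or endothelial list was called by edgeR without PSCI replicate 2 and taVNS replicate 3. The summed levels of pericytes and of arterial smooth muscle overlapped between all groups.

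Glial markers did separate the groups. Of 9 astrocyte markers 6 rose in PSCI against control, with a median of 2.6, and the same 6 fell in taVNS against PSCI, among them Vim, an intermediate filament protein, at 55.7 ± 33.8 CPM in taVNS, 860 ± 404 CPM in PSCI and 25.5 ± 3.86 CPM in control, and Gfap. The list summed to 2695 to 3428 CPM in taVNS, 7106 to 11689 CPM in PSCI and 2300 to 3275 CPM in control. Gfap made up much of this sum, with 4095, 7672 and 6553 CPM in PSCI replicates 1 to 3. The astrocyte markers Slc1a3, Aldh1l1 and Gja1 were not called in either comparison. Of 9 markers of microglia and macrophages 8 rose in PSCI against control, with a median of 1.66, and 5 fell in taVNS against PSCI, with Lgals3, a galectin, at 2.92 ± 2.12 CPM in taVNS, 74.9 ± 64.1 CPM in PSCI and 0.422 ± 0.353 CPM in control. This list summed to 243 to 319 CPM in taVNS, 467 to 857 CPM in PSCI and 169 to 229 CPM in control. Both sums were highest in PSCI replicate 2 and lowest of their group in PSCI replicate 1. Tagln2, Cnn2, Myl9, Tpm2 and Tpm4 had this order, and Tagln, highest in PSCI replicate 1, did not. The order was not particular to glia. Over PSCI replicates 1 to 3 the pericyte sum was 133, 172 and 145 CPM and the endothelial sum 250, 276 and 264 CPM. The meningeal sum, at 81.1, 436 and 117 CPM, had the order too. Sums of arterial smooth muscle (48.6, 31.2 and 42.2 CPM) and of neurons (5005, 3782 and 5142 CPM) did not. Without PSCI replicate 2 and taVNS replicate 3, 6 astrocyte and 7 microglial markers were called higher in PSCI than in control, and 4 and 3 lower in taVNS than in PSCI. Of the 10 meningeal markers 0 were called in either comparison by edgeR, with medians of 2.00 in PSCI against control and -0.48 in taVNS against PSCI. Without the 2 libraries with a high sum, 2 were called higher in PSCI than in control. Of the 6 neuronal markers 0 were called, with medians of -0.28 and 0.27. Their sum was nevertheless lower in every PSCI library (3782 to 5142 CPM) than in any taVNS (5283 to 6110 CPM) or control library (5474 to 6081 CPM).

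**Figure D5:**
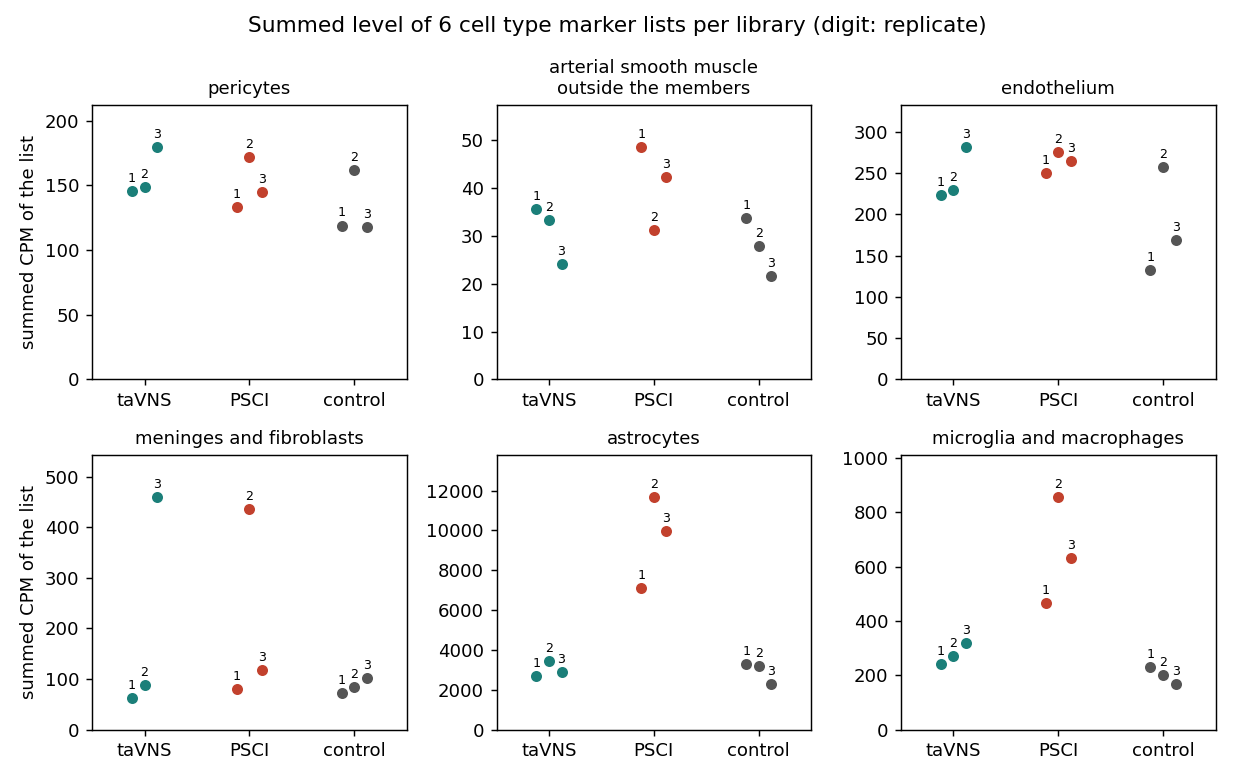
Summed CPM of 6 lists of cell type markers in each library (digit, replicate), for taVNS, PSCI and control, on axes that start at 0. Astrocyte and microglial sums are higher in all 3 PSCI libraries than in any other, pericyte and arterial smooth muscle sums overlap, and the meningeal sum is high in taVNS replicate 3 and PSCI replicate 2.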

How the data were processed

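Hippocampal RNA was enriched with oligo dT and sequenced from strand-marked libraries, per the labels' protocols. The deposited expected counts are the authors' estimates of reads per gene, and the deposited RPKM values are scaled for length and depth and given with 2 decimals. HISAT2 2.0.4, RSEM 1.2.8 and genome build mRatBN7.2 are named in the submitters' processing notes; their roles, the annotation and the counting of strand are not given in the sources used here. Between 91.1% and 91.6% of expected counts in a library were whole, and the rest were rounded.

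In R 4.3.3, counts were filtered by filterByExpr of edgeR 4.0.16 (14840 of 18733 genes), scaled by TMM, a trimmed mean over genes, and tested by the quasi-likelihood F test in 1 fit of all 9 libraries on group (6 residual degrees of freedom), with Benjamini-Hochberg adjustment over all tested genes and a threshold of 0.05. Levels are CPM after TMM, and 2 was the prior count for log2 CPM. The code was tested on simulated data. The members and the 11 gene lists were chosen with earlier results of these data known. All members and paralogs are named, and of other lists at most the 4 called genes with the largest difference at 1 CPM or more, a few fixed factors, and the 5 genes of nearest profile; some results of the lists are not reported here. Alternatives were DESeq2 1.42.0, its size factors, no filter, limma 3.58.1 on log2(RPKM + 0.1) and log2(RPKM + 1), each library left out, PSCI replicate 2 and taVNS replicate 3 both left out, 2 groups alone and a replicate block. Likeness by RPKM and gene pairs with no prior count were added after seeing the data. The p-values weigh a group difference against the spread between rats within groups, which the main fit estimated over all 9 libraries. Intervals and floors of counts cover counting error only, since the reads carried no stated molecular identifiers.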

Additional observations from a re-analysis of the deposited data

How the results depend on the processing

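The number of genes called in PSCI against control was 1461 in the edgeR test, 2257 with DESeq2 and 806 with the 2 groups alone, and leaving out each library gave 548 to 2255. In taVNS against PSCI it was 854, 1550 with DESeq2, 250 with the 2 groups alone, 361 with PSCI replicate 2 and taVNS replicate 3 both left out, and 172 to 1707 leaving out each library. In taVNS against control it was 0, 10 with DESeq2, 1 with both libraries left out, and 0 to 1 leaving out each library. Deviations from the group means correlated between -0.468 and 0.255 for samples with the same number, and between -0.388 and 0.458 for the other pairs. With 3 libraries per group these values cannot settle whether the numbers mark pairs or a batch, and the labels do not say. With a replicate block the counts were 1084, 518 and 0.

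Tpm2 in taVNS against PSCI was 0.00 and took either sign over the alternatives, from -0.31 to 0.38. Of the members' other values, 5 changed sign, all of differences that were not called. Myl9 in taVNS against control was -0.02 without taVNS replicate 3 and -0.03 with both libraries left out. Acta2 in taVNS against PSCI was -0.04 and -0.06 in these settings, and Tpm2 in taVNS against control was 0.01 without taVNS replicate 2. Leaving out each library, these differences ran from -0.02 to 0.27 for Myl9, from -0.04 to 0.39 for Acta2 and from -0.58 to 0.01 for Tpm2. Cnn2 moved to 2.52 in PSCI against control with limma on log2(RPKM + 1) and to -2.0 in taVNS against PSCI with both libraries left out. Differences of Tagln ranged from 3.64 to 4.09 in PSCI against control and from -3.75 to -3.49 in taVNS against PSCI over 17 alternatives, and those of Myl9 from 2.15 to 2.36 and from -2.28 to -2.01. The excess of Tagln minus Acta2 in PSCI over control was 3.56 to 3.73 leaving out each library. With no prior count, chosen after seeing the data, the excess of Tagln minus Cnn1 was 1.71 in place of 2.51 and that of Myl9 minus Cnn1 was 0.05 in place of 0.85, since the prior count shrinks the difference of Cnn1. Depth limited Cnn1, at 1 to 11 counts per library. The causes of these changes were not tested.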
